A study of Homo sapiens with 8 samples.

Results

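Expression of 10 genes for extracellular proteases and their inhibitors was examined in 8 RNA sequencing libraries from a pair of prostate cancer cell lines, out of 78691 genes in the count table. The genes were the matrix metalloproteases MMP13, MMP14, MMP15 and MMP16, the tissue inhibitors of metalloproteases TIMP1, TIMP2 and TIMP3, the membrane sheddases ADAM10 and ADAM17, and PLAU, the urokinase-type plasminogen activator. They were taken from the count table by gene name, and each name had 1 row. MMP13 was included because its level rose after MYCL knockdown in NCI-H660 cells, so its values in every comparison that uses the NCI-H660 libraries are given as a description and were not tested.

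C4-2B is a castration-resistant prostate adenocarcinoma line, and NCI-H660 is a neuroendocrine prostate cancer line. C4-2B cells carried an empty vector (control) or a lentiviral vector for MYCL, which encodes the MYC family transcription factor L-MYC, linked to EGFP by a self-cleaving peptide under the EF1A promoter. NCI-H660 cells carried a non-targeting shRNA (shCtrl) or shRNA against MYCL (shMYCL). The labels describe stable knockdown and the series text an adenoviral vector, so which system gave these libraries is not settled here. There were 2 libraries in each of the 4 groups. The labels call those of C4-2B control biological replicates and the others replicates, and do not say that they came from separate transductions, so the p-values measure the spread between these libraries, which may be technical. Each group came from 1 line, so the comparison of NCI-H660 with C4-2B cannot be told apart from differences in vector and origin.

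Matrix metalloproteases are zinc enzymes that are made as inactive precursors and cut collagens, other matrix proteins and growth factor carriers. MMP13 is a secreted collagenase, whereas MMP14, MMP15 and MMP16 are anchored in the membrane, and MMP14 activates other matrix metalloproteases at the cell surface with TIMP2 as an adaptor. The TIMPs bind the active sites of these enzymes and block them, ADAM10 and ADAM17 release the outer parts of Notch receptors, cadherins and growth factor precursors, and PLAU converts plasminogen to plasmin. Most of these proteins are regulated by activation and inhibition after translation, so transcript levels are not a measure of protease activity.

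Library totals lay between 15177071 and 32344170 counts. Values are given as CPM, which are counts scaled to a common library size, with that size adjusted by the TMM method over the 8 libraries, and as TPM, which are scaled to transcript length as well, where levels of different genes are set side by side. Groups were compared by the quasi-likelihood test of edgeR, with Benjamini-Hochberg adjustment over all tested genes, and a gene was called when its adjusted p was under 0.05 and its log2 fold change was 0.5 or more in either direction. For any 1 gene, an exact permutation over 2 and 2 libraries reaches at best a p of 0.33, and the p-values given here draw on the variation pooled over genes by edgeR. MYCL itself had 371 and 320 counts in the C4-2B controls and 65524 and 70253 after C4-2B overexpression. It had 1863 and 1602 counts in shCtrl libraries and 165 and 198 in shMYCL libraries, so its level followed the labels. Mean MYCL was 13.1 and 3982 CPM in C4-2B control and MYCL libraries, and 92.9 and 11.1 CPM in shCtrl and shMYCL libraries. A difference between the lines in the effect of high MYCL therefore cannot be told apart from the size and method of the MYCL change. The luminal marker KLK3 had between 893 and 1303 CPM in C4-2B libraries and 0 counts in all 4 NCI-H660 libraries, where KLK2 and FOLH1 were also at 0. The neuroendocrine marker CHGA had between 113 and 129 CPM in NCI-H660 libraries and at most 0.26 CPM in C4-2B libraries, and INSM1 and NCAM1 were at 0 in C4-2B. Among markers of cells that secrete proteases in tumors, DCN of fibroblasts had 0 counts in every library, and PTPRC of leukocytes had 1 count in 1 of the 8 libraries. Other genes of these lists were present: COL1A1 had between 125 and 342 counts in every library, LUM had 26 and 34 counts in shCtrl, 11 and 15 in shMYCL and 0 in C4-2B libraries, and CD68 had between 322 and 650 counts in C4-2B and at most 6 in NCI-H660 libraries. The endothelial list (PECAM1, CDH5, VWF and TEK) summed to between 2.24 and 10.3 CPM over the libraries.

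Per transcript length, ADAM10 had the highest level of the 10 genes in C4-2B cells and PLAU in NCI-H660 cells. In C4-2B control cells the mean TPM was 55.5 for ADAM10, 35.4 for MMP15, 12.5 for TIMP2, 9.95 for MMP16 and 9.20 for ADAM17, while MMP13 and MMP14 lay near 1 TPM (1.33 and 1.25) and TIMP1, TIMP3 and PLAU were at 0. In shCtrl NCI-H660 cells the mean TPM was 363 for PLAU, 102 for ADAM10, 61.5 for TIMP2, 33.6 for ADAM17, 25.7 for MMP15, 12.9 for MMP16 and 8.0 for MMP13, while MMP14, TIMP1 and TIMP3 were under 0.2 TPM. MMP15 took between 73.5% and 77.4% of the TPM summed over the 4 MMP genes in C4-2B libraries and 54.1% and 56.1% in the shCtrl libraries. MMP13 was the largest of the 4 in both shMYCL libraries, with 44% and 52.5% of that sum. TIMP2 made up between 95% and 100% of the summed TPM of the 3 TIMP genes in every library.

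**Figure D1:**
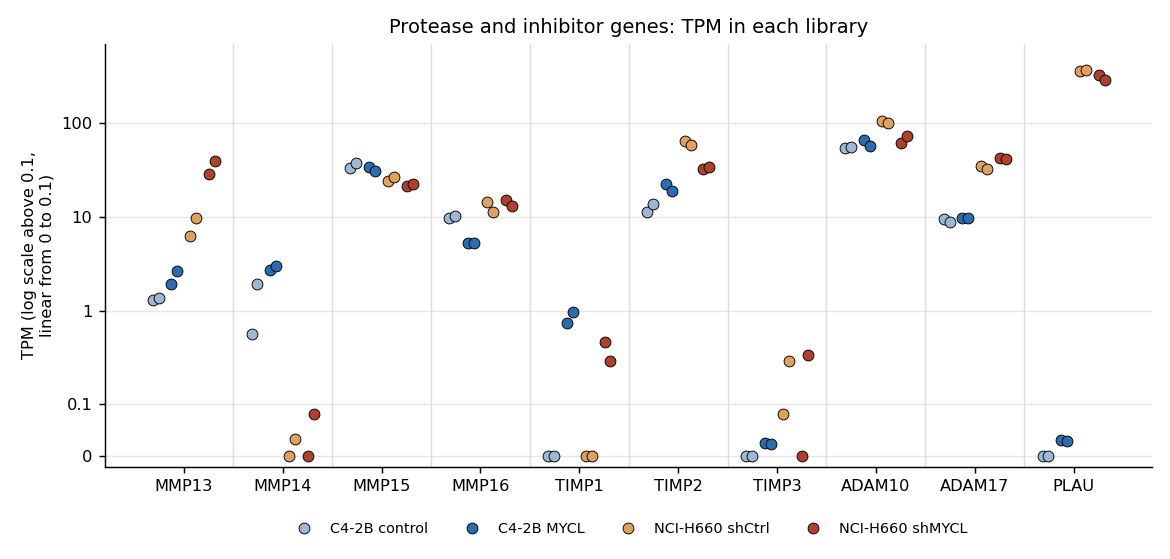
TPM of the 10 genes (horizontal axis) in each of the 8 libraries, with 1 point per library, 2 libraries per group and a vertical axis that is logarithmic above 0.1 TPM and linear from 0 to 0.1 TPM. PLAU lies above 286 TPM in all 4 NCI-H660 libraries and at or under 0.0306 TPM in the 4 C4-2B libraries, and TIMP2 lies above TIMP1 and TIMP3 in every library.

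MYCL overexpression in C4-2B cells addressed which genes respond when L-MYC is added to adenocarcinoma cells. Of the 10 genes, 7 were abundant enough for the edgeR filter (filterByExpr), and 3 of these were called, where 19.9% of the 16866 tested genes were called. MMP14 and TIMP2 rose (11.8% of tested genes were called higher) and MMP16 fell (8.12% were called lower). The median log2 fold change of the 7 was 0.24, and that of all tested genes was -0.00169. MMP13, MMP15, ADAM10 and ADAM17 did not pass, and TIMP1, TIMP3 and PLAU were not tested because of their low counts. MYCL knockdown in NCI-H660 cells addressed the reverse, the genes whose level depends on the L-MYC of neuroendocrine cells. Besides MMP13, 7 genes were tested and 2 of them, TIMP2 and ADAM10, were called. Both fell, where 16.2% of the 16980 tested genes were called and 8.99% were called lower. The median log2 fold change of these 7 was -0.23, against -0.00289 over all tested genes. MMP15, MMP16, TIMP3, ADAM17 and PLAU were not called, and MMP14 and TIMP1 were below the filter. With 7 genes in each comparison, no statement is made on whether these shares differ from those of all genes. The comparisons do not share libraries.

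**Figure D2:**
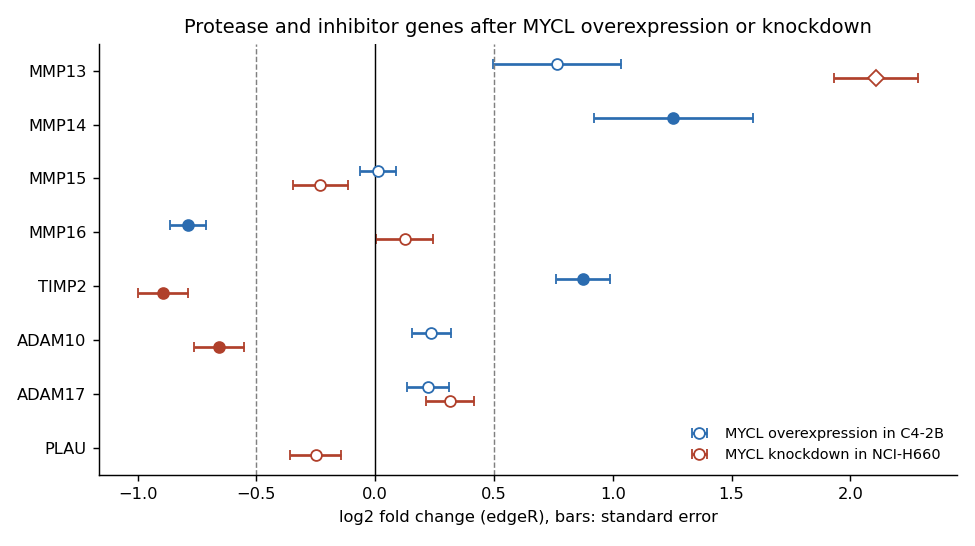
Log2 fold change (horizontal axis, edgeR) with its standard error as a bar for the genes with tested counts, for MYCL overexpression in C4-2B (blue) and MYCL knockdown in NCI-H660 (red). Filled circles were called, open circles were not, the open diamond marks MMP13 after knockdown, which was not tested, and dashed lines mark 0.5 in either direction; TIMP2 lies at 0.87 after overexpression and at -0.89 after knockdown, and TIMP3 (-0.07, standard error 0.98, after knockdown) is not drawn.

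MMP13 (ENSG00000137745.14, GRCh38 chromosome 11, 102942995 to 102955732, minus strand) had 155 and 256 counts in the shCtrl libraries and 655 and 883 in the shMYCL libraries. In CPM this was 8.66 and 13.1 in shCtrl and 40.8 and 53.4 in shMYCL. Both knockdown libraries lay above both control libraries, and the shCtrl pair differed more, relative to its mean, than the shMYCL pair. The log2 fold change was 2.11 (standard error 0.18), a fold of 4.31, and ranged from 1.85 without shCtrl replicate 1 to 2.44 without shCtrl replicate 2. C4-2B control libraries held 2.86 and 2.97 CPM of MMP13 and C4-2B MYCL libraries 4.04 and 5.85. The ranges did not overlap, but the difference did not pass the test (log2 fold change 0.77, standard error 0.27, adjusted p = 0.0546 from edgeR). Over the alternatives its adjusted p lay between 0.012 and 0.3, and it passed in 4 of 14, among them without C4-2B MYCL replicate 1 (1.02, adjusted p = 0.012 from edgeR). The order of the groups by MMP13 level was shMYCL (47.1 ± 8.90 CPM, SD, n = 2), shCtrl (10.9 ± 3.11), C4-2B MYCL (4.94 ± 1.28) and C4-2B control (2.91 ± 0.08), and no neighbors in that order overlapped. Annotated exons of MMP13 share no bases with another gene.

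MMP13 belongs to a cluster of metalloprotease genes on the long arm of chromosome 11 that formed by duplication. MMP10 (ENSG00000166670.10, GRCh38 chromosome 11, 102770502 to 102780628, minus strand), which encodes stromelysin-2, an enzyme that can activate procollagenases, lies 162366 bases away in the same cluster, with MMP1, MMP3 and MMP12 between them. MMP10 had 19 and 29 counts in shCtrl and 109 and 126 in shMYCL libraries, or 1.06 and 1.48 against 6.79 and 7.62 CPM. Both shMYCL libraries lay above both shCtrl libraries, and MMP10 rose by a log2 fold change of 2.49 (edgeR, standard error 0.29, adjusted p = 2.91e-05). MMP10 was the only other gene of the 9 in the cluster that passed the filter in NCI-H660. MMP1 had 4 and 3 counts in shCtrl and 9 and 7 in shMYCL, and MMP3, MMP7, MMP8, MMP12, MMP20 and MMP27 had 0 in all 4 NCI-H660 libraries. C4-2B control libraries held 10 and 1 counts of MMP10 and C4-2B MYCL libraries 16 and 11, and it was not called there. Its response to high MYCL, taken as shCtrl against shMYCL, differed from that in C4-2B (interaction log2 difference -4.43, standard error 0.73, adjusted p = 0.00113 from edgeR). Among 19604 other genes that passed the filter over the 8 libraries, the 5 whose pattern was most like that of MMP13, by the root mean square difference of log2(CPM + 0.5) centered on each gene's mean, were HTR1D (0.319), EML6 (0.353), MMP10 (0.355), ENPP2 (0.363) and EBF4 (0.370). This ranking used the NCI-H660 values on which MMP13 was picked, so a rise of these 5 genes after knockdown follows from the ranking. HTR1D and ENPP2 had 0 CPM in both C4-2B control libraries, so their distances depend on the added 0.5.

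**Figure D3:**
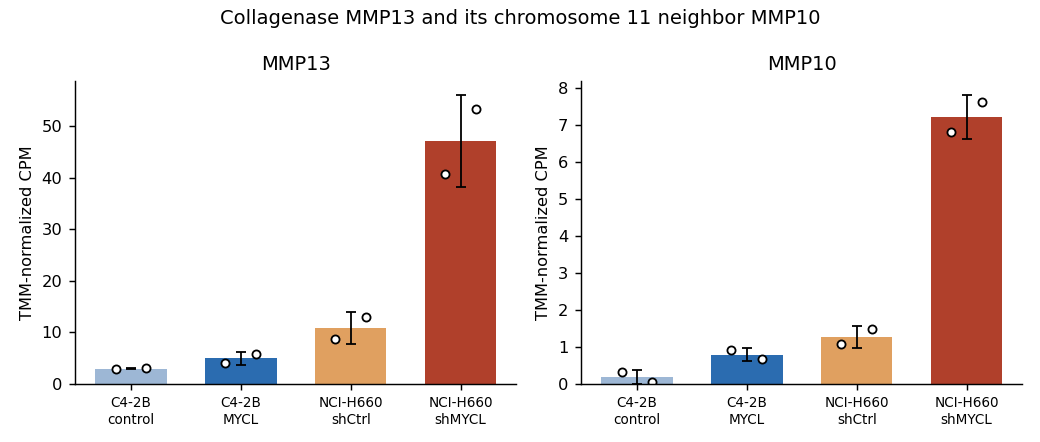
TMM-normalized CPM of MMP13 and MMP10 in the 4 groups; bars are means, error bars are SD (n = 2) and points are libraries. The 2 shMYCL libraries lie above all other libraries for both genes, at 40.8 and 53.4 CPM for MMP13 and at 6.79 and 7.62 CPM for MMP10.

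Among the membrane-anchored metalloproteases, MMP16 fell with MYCL overexpression. MMP16 (ENSG00000156103.16, GRCh38 chromosome 8, 88032011 to 88328025, minus strand) had 98.9 and 103 CPM in C4-2B control and 55.9 and 60.3 CPM in C4-2B MYCL libraries. The MYCL pair was the lowest of the 4 groups and did not overlap any other. The log2 fold change was -0.79 (edgeR, standard error 0.08, adjusted p = 0.000162), and MMP16 stayed called under all 14 alternatives. In NCI-H660 it had 94.1 and 76.6 CPM in shCtrl and 99.4 and 86.7 CPM in shMYCL libraries, ranges that overlapped, at a log2 fold change of 0.12 (edgeR, standard error 0.12, adjusted p = 0.487). The effect of high MYCL on MMP16 differed between the lines, by 0.67 on the log2 scale (standard error 0.15, adjusted p = 0.00875 from edgeR's interaction test). That call was lost on log2(TPM + 1) values centered on the median of each library (adjusted p = 0.0566 from limma).

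MMP14 (ENSG00000157227.15, GRCh38 chromosome 14, 22836560 to 22849041, plus strand) was detected mainly in C4-2B cells. Control libraries held 53 and 80 counts and MYCL libraries 111 and 100, or 1.72 and 3.55 against 6.32 and 6.03 CPM, with 0 and 1 counts in shCtrl and 0 and 2 in shMYCL libraries. The C4-2B MYCL libraries lay above both controls, although the controls differed by more than the MYCL pair. The log2 fold change was 1.25 (edgeR, standard error 0.34, adjusted p = 0.0186). The call was lost in 5 of 14 alternatives, among them without C4-2B control replicate 1, where the value was 0.79 (adjusted p = 0.0703 from edgeR). MMP14 is among genes that the study selected on these C4-2B samples, so its rise is not independent evidence. Between the control groups the ratio of C4-2B control to shCtrl was 93.5 (95% exact binomial interval 16.5 to 3719), from 133 counts against 1, and that of C4-2B MYCL to shMYCL was 101 (27.5 to 836), from 211 counts against 2; these intervals cover counting error only.

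MMP15 (ENSG00000102996.6, GRCh38 chromosome 16, 58025754 to 58046901, plus strand) was not called in either MYCL comparison. C4-2B libraries held 114 and 127 CPM in control and 122 and 120 CPM in MYCL cells, at a log2 fold change of 0.01 (standard error 0.08). NCI-H660 libraries held 53.0 and 61.8 CPM in shCtrl and 47.5 and 50.6 CPM in shMYCL cells, at a log2 fold change of -0.23 (edgeR, standard error 0.12, adjusted p = 0.164). Its level was lower in NCI-H660 shCtrl than in C4-2B control cells, at a log2 fold change of -1.07 (edgeR, standard error 0.10, adjusted p = 2.44e-07).

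TIMP2 was the 1 gene of the 10 that was called in both lines, and it moved with MYCL in each. TIMP2 (ENSG00000035862.14, GRCh38 chromosome 17, 78852977 to 78925387, minus strand) had 32.8 and 40.4 CPM in C4-2B control and 71.0 and 62.1 CPM in C4-2B MYCL libraries. It had 124 and 118 CPM in shCtrl and 63.7 and 66.8 CPM in shMYCL libraries. Both MYCL libraries were above both controls in C4-2B, both shMYCL libraries were below both shCtrl libraries in NCI-H660, and the C4-2B MYCL and shMYCL ranges overlapped. TIMP2 rose by a log2 fold change of 0.87 (edgeR, standard error 0.12, adjusted p = 0.000636) with overexpression and had a log2 fold change of -0.89 (edgeR, standard error 0.10, adjusted p = 2.56e-05) with knockdown. Taken as high against low MYCL, the effects in the lines differed by 0.02 (standard error 0.15, adjusted p = 0.998 from edgeR's interaction test), which does not show that they are equal. The knockdown and overexpression calls of TIMP2 were each lost under 1 of 14 alternatives. This was limma on log2(TPM + 1) without a filter (limma, adjusted p = 0.0844 and 0.0728). That setting called 1 gene in all in NCI-H660 but still called many genes in C4-2B. Of the exon bases of TIMP2, 9.52% are shared with other annotated genes, CEP295NL on the same strand among them. Other cell type markers also moved in these comparisons. In C4-2B the leukocyte list summed to 12.0 and 14.9 CPM in control and 34.6 and 39.5 CPM in MYCL libraries, nearly all from CD68, with PTPRC at 0 in all 4. The fibroblast list summed to 11.6 and 14.1 against 20.2 and 21.3 CPM, mostly COL1A1, with DCN, LUM and PDGFRA at 0. In NCI-H660 the neuroendocrine markers SOX2 (102 and 98.4 CPM in shCtrl, 46.7 and 51.3 CPM in shMYCL) and INSM1 (54.7 and 55.1 against 33.7 and 36.6 CPM) were also lower after knockdown. Of the 7 genes of that list, 3 were called lower, where 8.99% of all tested genes were, and 4 were not called. Among those not called were CHGA (log2 fold change -0.11), NCAM1 (-0.22) and SYP (0.18). The part of these markers in the changes of TIMP2 and ADAM10 was not tested. In bulk RNA a lower share of cells of one state and less RNA per cell cannot be told apart.

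TIMP1 and TIMP3 were near the limit of detection. TIMP1 (ENSG00000102265.13, GRCh38 chromosome X, 47582408 to 47586789, plus strand) had 0 and 0 counts in C4-2B control, 6 and 8 in C4-2B MYCL, 0 and 0 in shCtrl and 1 and 1 in shMYCL libraries. The C4-2B MYCL libraries were the highest, at least 3.57-fold above the level that 3 counts in each control library would give. TIMP3 (ENSG00000100234.13, GRCh38 chromosome 22, 32801705 to 32863041, plus strand) had 0 and 0, 1 and 1, 2 and 15, and 0 and 14 counts in the same order of groups. The replicates of each NCI-H660 group spread over nearly the whole range of the gene, and no change with knockdown was detectable (adjusted p = 0.972 from edgeR).

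**Figure D4:**
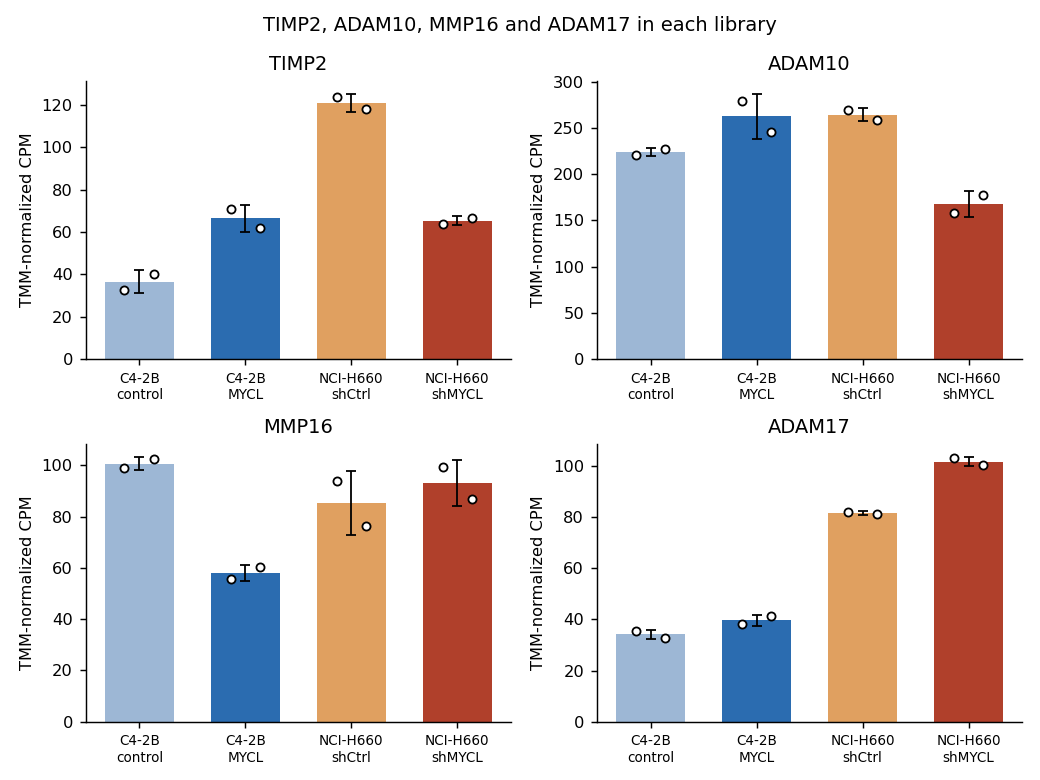
TMM-normalized CPM of TIMP2, ADAM10, MMP16 and ADAM17 in the 4 groups; bars are means, error bars are SD (n = 2) and points are libraries. The shMYCL libraries are the lowest for ADAM10, at 158 and 177 CPM, and the highest for ADAM17, at 103 and 101 CPM, and the C4-2B MYCL libraries are the lowest for MMP16.

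Of the sheddases, ADAM10 fell after knockdown and ADAM17 was not called in either line. ADAM10 (ENSG00000137845.16, GRCh38 chromosome 15, 58588809 to 58749791, minus strand) had 269 and 259 CPM in shCtrl and 158 and 177 CPM in shMYCL libraries. Both shMYCL libraries were below all 6 other libraries, and ADAM10 had a log2 fold change of -0.66 (edgeR, standard error 0.11, adjusted p = 0.000373). In C4-2B it had 221 and 227 CPM in control and 279 and 245 CPM in MYCL libraries, which gave a log2 fold change of 0.24 (edgeR, standard error 0.08, adjusted p = 0.0514). The difference between the effects of high MYCL in the lines was 0.43 (standard error 0.13, adjusted p = 0.0362 from edgeR), below the size of 0.5 that was set. It passed that size without C4-2B MYCL replicate 1 (0.51, adjusted p = 0.0253 from edgeR) and without shMYCL replicate 2 (0.52, adjusted p = 0.0317 from edgeR).

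ADAM17 (ENSG00000151694.16, GRCh38 chromosome 2, 9488486 to 9556732, minus strand) had 82.2 and 81.1 CPM in shCtrl and 103 and 101 CPM in shMYCL libraries. The ranges did not overlap, and the log2 fold change of 0.32 (edgeR, standard error 0.10, adjusted p = 0.033) was below the size that was set. C4-2B libraries had 35.5 and 32.8 CPM in control and 38.2 and 41.2 CPM in MYCL cells, at a log2 fold change of 0.22 (edgeR, standard error 0.09, adjusted p = 0.0859). The effect of high MYCL differed between the lines by -0.53 (standard error 0.13, adjusted p = 0.01 from edgeR's interaction test), lower in NCI-H660. The call was lost in 4 of 13 alternatives, among them without C4-2B control replicate 2 (-0.49, adjusted p = 0.0533 from edgeR) and without C4-2B MYCL replicate 2 (-0.50, adjusted p = 0.0376 from edgeR). MMP16 and ADAM17 were the 2 called of 8 genes tested for an interaction, which called 17.9% of 19605 tested genes (8.33% higher and 9.59% lower). Of the exon bases of ADAM17, 11.7% are shared with genes on the opposite strand, mainly IAH1, and whether the counting used the strand is not given in the sources used here.

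RefSeq promoter sequences (GRCh38.p14) were available for 7 of the 10 genes, with 8 entries, the 7 being MMP14, MMP15, TIMP1, TIMP3, ADAM10, ADAM17 and PLAU; MMP13, MMP16 and TIMP2 had none. Each window of 250 bases before the start site was searched on both strands for the E-boxes CACGTG and CAGCTG, of which the first is the canonical site of MYC family proteins with MAX, for the AP-1 site TGANTCA and for the ETS and PEA3 site AGGAAG. The start sites are those of RefSeq and differ in part from the GENCODE gene spans given here. Against those spans, the windows of ADAM10, MMP14 and TIMP1 overlap the gene, and those of ADAM17 and PLAU lie inside it. Over 35116 promoters, 6.34% held CACGTG, 14% CAGCTG, 6.57% TGANTCA and 28.7% AGGAAG. The window of ADAM10 (chr15:58749708-58749957, minus strand) held CACGTG at bases -143 to -138 and AGGAAG at -134 to -129 and at -54 to -49, where base -1 is next to the start site. The window of MMP14 (chr14:22836335-22836584, plus strand) held none of the motifs. They are printed because they are the windows of the 2 genes with an entry that were called with MYCL, 5′ to 3′ on the strand of the gene, with motifs in capitals.
ADAM10: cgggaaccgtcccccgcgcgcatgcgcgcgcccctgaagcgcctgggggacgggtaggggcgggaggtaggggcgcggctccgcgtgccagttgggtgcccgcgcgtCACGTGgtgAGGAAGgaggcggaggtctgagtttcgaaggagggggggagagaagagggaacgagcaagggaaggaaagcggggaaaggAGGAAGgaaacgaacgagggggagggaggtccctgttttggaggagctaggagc
MMP14: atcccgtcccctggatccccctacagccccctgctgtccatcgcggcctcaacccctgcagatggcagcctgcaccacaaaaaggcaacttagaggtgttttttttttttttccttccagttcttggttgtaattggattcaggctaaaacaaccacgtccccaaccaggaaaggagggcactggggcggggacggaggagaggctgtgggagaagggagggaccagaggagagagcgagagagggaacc
ADAM17, TIMP1 and 1 of the 2 entries of PLAU held 1 AGGAAG each, and the windows of MMP15, TIMP3 and the other entry of PLAU held none. A match is a run of letters and is not evidence of binding.

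PLAU separated the lines. PLAU (ENSG00000122861.17, GRCh38 chromosome 10, 73909177 to 73917496, plus strand) had 0 and 0 counts in C4-2B control, 1 and 1 in C4-2B MYCL, 7602 and 9037 in shCtrl and 6363 and 5788 in shMYCL libraries. The shCtrl level was at least 3844-fold above that of C4-2B control, counted against 3 counts per control library. In CPM, shCtrl libraries held 425 and 461 and shMYCL libraries 396 and 350. The shMYCL libraries lay below both controls, but the log2 fold change of -0.25 (edgeR, standard error 0.11, adjusted p = 0.102) did not pass. Of the exon bases of PLAU, 31.0% are shared with C10orf55 on the opposite strand.

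Other genes of plasminogen activation were also higher in NCI-H660. Of 12 listed genes, 9 were tested between shCtrl NCI-H660 and control C4-2B, where 7 were called higher (36.5% of 19605 tested genes were called higher) and 1 lower (33.3% were called lower). PLAU, PLAUR and ANXA2 passed the filter only through NCI-H660 libraries, so their calls restate that they were present in that line. PLAUR, the receptor of PLAU, had 0.29 and 0.27 CPM in C4-2B control and 3.19 and 3.11 CPM in shCtrl libraries. ANXA2 and S100A10, which together form a cell surface complex that binds plasminogen, had 0.16 and 0.80 CPM and 2.53 and 1.20 CPM in C4-2B control against 360 and 384 CPM and 30.01 and 35.1 CPM in shCtrl. SERPINA5, a protease inhibitor that acts on PLAU, was the 1 lower gene, with 10 and 21 counts against 1 and 2, and its call was lost in 5 of 12 alternatives, among them without C4-2B control replicate 2 and without shCtrl replicate 1. PLAT (log2 fold change 1.87), LRP1 (0.83) and SERPINE2 (1.25), which encodes another inhibitor, were also among the genes called higher. The call of SERPINE2 was lost without C4-2B control replicate 1. PLG, which encodes plasminogen itself, had at most 9 counts in a library and 0 in all 4 NCI-H660 libraries.

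With MYCL overexpression, 3 of the 7 tested genes of the plasminogen list rose, where 11.8% of all tested genes were called higher. None of the 7 was called lower, 0 had an unadjusted p under 0.05 in that direction in edgeR, and DESeq2 called 0 lower. SERPINA5 had 0.32 and 0.93 CPM in control and 7.57 and 8.56 CPM in C4-2B MYCL libraries, which gave a log2 fold change of 3.74 (edgeR, standard error 0.41, adjusted p = 0.00026). SERPINA5, PLAT and SERPINF2 passed the filter in C4-2B only through the MYCL libraries. The absence of lower genes among the 7 was therefore in part set by the filter. SERPINE2, which encodes the inhibitor protease nexin-1, had 0.52 and 1.06 against 3.24 and 5.19 CPM, with 2.44 (standard error 0.43, adjusted p = 0.00259 from edgeR). LRP1, the receptor that clears complexes of proteases with their inhibitors, had a log2 fold change of 0.95 (edgeR, standard error 0.08, adjusted p = 9.59e-05). The median of the list was 1.29, against -0.00169 over all tested genes. It is the value of SERPINF2, 1 of the genes let in by the MYCL libraries, and is not separate support. With MYCL knockdown, SERPINE2 (log2 fold change 1.24) and S100A10 (0.60) rose and LRP1 (-0.62) fell among 7 tested genes, against shares of 7.18% higher and 8.99% lower over all tested genes, and the median was -0.10. The call of S100A10 was lost without shCtrl replicate 1 (0.49) and that of LRP1 without shMYCL replicate 2 (-0.40). SERPINE2 rose in both comparisons, with an interaction of -3.68 (standard error 0.54, adjusted p = 0.000523 from edgeR).

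**Figure D5:**
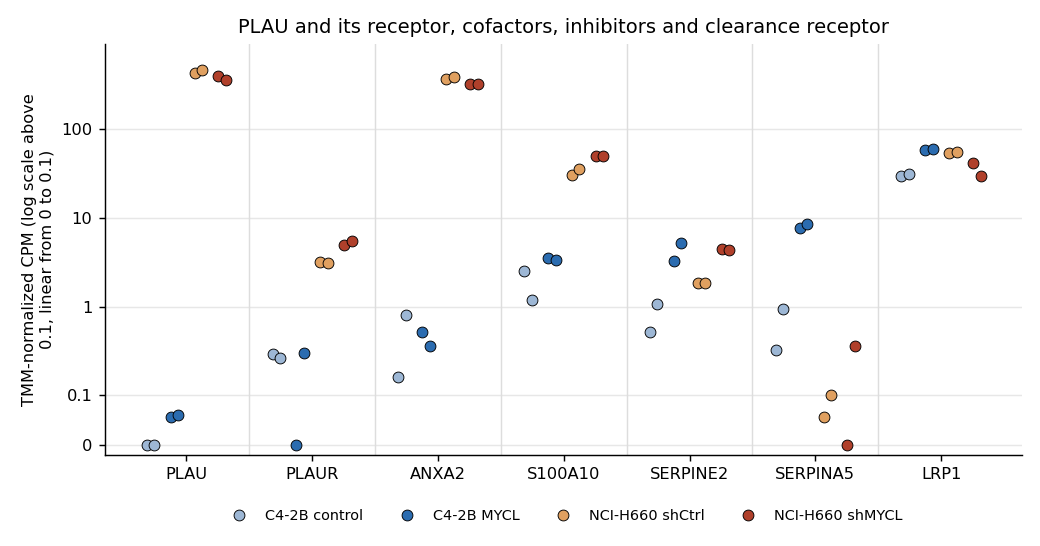
TMM-normalized CPM of PLAU, its receptor PLAUR, the plasminogen-binding ANXA2 and S100A10, the inhibitors SERPINE2 and SERPINA5, and LRP1 in each of the 8 libraries (1 point each), on an axis that is logarithmic above 0.1 CPM and linear from 0 to 0.1. PLAU and ANXA2 lie at 318 CPM or more in all 4 NCI-H660 libraries and under 1 CPM in all 4 C4-2B libraries, and SERPINA5 lies at 7.57 and 8.56 CPM in C4-2B MYCL and under 1 CPM in the other libraries.

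The wider protease families were counted from lists. Of 23 matrix metalloproteases, 9 were tested in C4-2B, and 3 rose and 1 fell with MYCL overexpression, against 11.8% and 8.12% of all tested genes. Besides MMP14 and MMP16 these were MMP24, a membrane-type enzyme of neurons, and MMP17, both higher. MMP24 had 2.82 and 2.44 CPM in control and 6.83 and 8.32 CPM in MYCL libraries, which gave a log2 fold change of 1.52 (edgeR, standard error 0.24, adjusted p = 0.00143). MMP17 had 4 counts in the control libraries together and 19 in the MYCL libraries, a ratio of 7.42 (95% exact binomial interval 2.47 to 29.98), and its call was lost without either control library. It was also lost in DESeq2 and with no filter. MMP17 passed the filter only through the MYCL libraries, so its place among the genes that rose is not separate support. The median of the 9 was 0.77. MMP10 (log2 fold change 1.97, not called) also passed the filter in C4-2B only through the MYCL libraries, so this median is not separate support. After knockdown, with MMP13 left out, 8 were tested, and MMP10 and MMP24 rose and MMP11 fell, with a median of 0.14. Of all tested genes, 7.18% were called higher and 8.99% lower. MMP24 had 32.3 and 39.3 CPM in shCtrl and 59.3 and 63.1 CPM in shMYCL libraries, which gave a log2 fold change of 0.77 (edgeR, standard error 0.12, adjusted p = 0.000344), so it rose with overexpression in C4-2B and with knockdown in NCI-H660, and its interaction was -2.28 (standard error 0.22, adjusted p = 3.33e-05 from edgeR). MMP11 (stromelysin-3) had 6.82 and 6.99 CPM in shCtrl and 3.74 and 2.54 CPM in shMYCL libraries, which gave a log2 fold change of -1.14 (edgeR, standard error 0.26, adjusted p = 0.00431). MMP2 had 0 counts in every library, and MMP9 had at most 1 count in a C4-2B library and between 13 and 28 in NCI-H660 libraries.

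Of 21 ADAM genes, 10 were tested in each line; over all tested genes, 19.9% were called after overexpression and 16.2% after knockdown. With overexpression ADAM11 (0.59) and ADAM23 (0.74) were called higher and ADAM7 (-0.87) and ADAM28 (-2.47) lower, and with knockdown ADAM11 (0.80) was called higher and ADAM10 and ADAM12 (-1.18) lower, with medians of 0.22 and 0.03. Of these, ADAM7 fell in all 14 alternatives, from 20.8 and 21.2 CPM in control to 11 and 11.8 CPM in C4-2B MYCL libraries. The calls of ADAM11, ADAM12, ADAM23 and ADAM28 were each lost when some single libraries were left out. In C4-2B, ADAM28 passed the filter only through the control libraries. Of 19 ADAMTS genes, which encode secreted relatives that cut proteoglycans and other matrix proteins, 7 were tested in C4-2B and 11 in NCI-H660. ADAMTS13 (1.10) was the 1 gene called in C4-2B, and its call was lost without C4-2B control replicate 1 and without C4-2B MYCL replicate 1. ADAMTS1, ADAMTS6 and ADAMTS12 were called higher after knockdown, with a median of 0.14 over the 11. ADAMTS12 had 4 and 2 counts in shCtrl and 72 and 79 in shMYCL libraries, a ratio of 29.0 (95% exact binomial interval 13 to 80.2). ADAMTS1 had 2.01 and 1.58 against 5.61 and 4.42 CPM in those groups, at a log2 fold change of 1.48 (edgeR, standard error 0.31, adjusted p = 0.00266), and ADAMTS6 (1.58) was lost when any 1 library was left out. ADAMTS6 and ADAMTS12 passed the filter only through the shMYCL libraries, so their calls are not separate support.

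Of the 6 TIMPs and other metalloprotease inhibitors, TIMP2 was the 1 called gene among 2 tested in C4-2B and 3 tested in NCI-H660 after a change in MYCL. Over all tested genes, 11.8% were called higher and 8.12% lower after overexpression, and 7.18% higher and 8.99% lower after knockdown. The lists in this paragraph are too short for a statement on whether they differ from those shares. RECK, a membrane-anchored inhibitor, lay between 5.53 and 8.83 CPM in all 8 libraries. Of 5 convertases and cofactors, FURIN, which cleaves the propeptides of ADAMs and membrane-type MMPs, was the 1 of 4 tested that rose with overexpression (0.60, standard error 0.13, adjusted p = 0.00729 from edgeR), a call lost without C4-2B MYCL replicate 2 (0.47). After knockdown 0 of 4 were called in edgeR. At an unadjusted p under 0.05, 0 of those 4 passed in edgeR, and DESeq2 called 0, with log2 fold changes between -0.11 and 0.49. Of 9 partners of ADAM10 and ADAM17, 8 were tested in each line, and 1 was called in each. RHBDF1, which encodes iRhom1, a carrier of ADAM17 to the surface, rose with overexpression (0.65, standard error 0.13, adjusted p = 0.00532 from edgeR). The tetraspanin TSPAN33, a partner of ADAM10, was called higher after knockdown (1.63) from 5 and 9 to 21 and 17 counts, a call lost when any 1 library was left out. TSPAN33 passed the filter there only through the shMYCL libraries.

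Between control NCI-H660 and control C4-2B cells, 8 of the 10 genes were tested besides MMP13, and 6 of these 8 were called, where 69.8% of all tested genes were called. TIMP2 (log2 fold change 1.73, standard error 0.11, adjusted p = 5.85e-09 from edgeR), ADAM17 (1.26, standard error 0.09, adjusted p = 1.97e-08 from edgeR), PLAU and TIMP3 were higher in NCI-H660, and MMP14 and MMP15 were lower. The call of TIMP3 rests on 17 counts against 0, at least 3.81-fold, and was lost in 4 of 9 alternatives in which it was tested, among them without either C4-2B control library and without shCtrl replicate 2. PLAU and TIMP3 passed the filter only through NCI-H660 libraries and MMP14 only through C4-2B libraries. The calls of these genes therefore describe presence in a line and are not separate support. MMP16 (-0.24, adjusted p = 0.055 from edgeR) did not pass, and ADAM10 (0.24, standard error 0.09, adjusted p = 0.0304 from edgeR) was below the size that was set. MMP13 had a log2 fold change of 1.90 in this contrast. The scale of the values mattered here. On log2(TPM + 1) values the median of all genes lay 0.53 higher in NCI-H660, MMP15 had -0.45 and lost its call, MMP16 had 0.33 in place of -0.24 and was not called, and ADAM10 had 0.87 and passed. On log2(TPM + 1) values centered on the median of each library, MMP15 was called (-1.20) and ADAM10 was not (0.12), as with counts. This contrast and the knockdown share the shCtrl libraries, and it shares the C4-2B control libraries with the overexpression contrast.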

How the data were processed

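RNA was measured by poly(A)-selected, paired-end sequencing of 8 libraries, 2 for each of 4 groups assigned from the labels. The authors deposited estimated counts for 78691 genes, without normalization, of which 22.4% of non-zero values were not whole within 0.01, and TPM values for 65535 genes. The submitters' processing notes name hg38, and the aligner and counting tool are not given in the sources used here. Counts were rounded. The lines were fitted separately in edgeR 4.0.16 (R 4.3.3) with TMM, filterByExpr and the quasi-likelihood test, and control lines and the interaction were tested in a fit of all 8 libraries. The standard error is the size of the log2 fold change over the root of the F statistic.

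Alternatives were DESeq2 1.42.0 and its size factors, limma 3.58.1 on log2(TPM + 1) or log2(TPM + 0.1) unfiltered or for genes that reach a TPM of 1 in 2 libraries, no filter or at least 10 counts in every library, other fold minima, a fit of all libraries, a replicate block and leaving out each library. Centering log2(TPM + 1) on each library's median was added after seeing the data. In simulated data the edgeR test called 200 of 200 genes changed by 1.5 on the log2 scale, with 16 unchanged genes among the calls, at C4-2B depth over 16408 genes. At NCI-H660 depth it called 200 of 200, with 8 unchanged genes, over 16656 genes. The changed genes were drawn only from genes with higher expected counts, and every gene was given the same spread between libraries. The simulation therefore does not show how the test did for genes with low counts or uneven replicates.

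The 10 genes and all gene lists (metalloprotease families, inhibitors, convertases, plasminogen activation, ADAM partners and cell type markers) were chosen with earlier results of these data known. Named genes are the 10, the called genes of each list with the largest changes (up to 4), genes behind counts of 5 or fewer, and the 5 genes most like MMP13; RECK, PLG, MMP1, MMP2 and MMP9 were named after their values were seen. A library with 0 counts allows up to 3, and intervals and floors cover counting error only. Positions are from GENCODE 44, which holds 61458 of the gene identifiers. Python 3.11.15, pandas 2.3.3 and scipy 1.17.1 were used for tables. Some marker genes, and the summed lists that hold them, are not reported here.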

Additional observations from a re-analysis of the deposited data

Results flagged for a closer look

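MMP16 and ADAM17 were flagged because the effect of high MYCL on them differed between NCI-H660 and C4-2B cells in edgeR's interaction test. The size and method of the MYCL change also differed between the lines, and the test cannot tell these apart from the line. They were 2 of 8 genes tested, where 17.9% of all 19605 tested genes were called. The effect on MMP16 was higher in NCI-H660 by 0.67 on the log2 scale (standard error 0.15, adjusted p = 0.00875 from edgeR), since both C4-2B MYCL libraries were lower than both controls while the shCtrl and shMYCL ranges overlapped. The effect on ADAM17 was lower in NCI-H660, with a difference of -0.53 (standard error 0.13, adjusted p = 0.01 from edgeR). ADAM17 was not called in either line on its own, with 0.22 after overexpression and 0.32 after knockdown. The interaction call of ADAM17 was lost in 4 of 13 alternatives and that of MMP16 in 1. Both were lost on log2(TPM + 1) values centered on the median of each library. No groups had the 4 libraries needed to look for single libraries far from the others.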

How the results depend on the processing

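Of 440 single-gene values of the 10 genes under an alternative, 20 lost a call, 9 gained one, 9 of MMP13 where it was not tested moved by more than 1 standard error, and 0 calls reversed. The rest kept their side of the threshold, and 19 values that were not called changed sign, of MMP14, MMP15, MMP16, TIMP2, TIMP3 and PLAU. The call of ADAM10 after knockdown was lost with limma on unfiltered log2(TPM + 1) (adjusted p = 0.108).

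The number of genes called after overexpression was 3355 and became 1940 with limma on unfiltered log2(TPM + 1), 5895 with no fold minimum and 1411 with a minimum of 1, at which 1 in place of 3 of the 10 genes was called. After knockdown, 2745 became 1702 with limma on log2(TPM + 1), 1600 on log2(TPM + 0.1), 1 unfiltered, 1692 when centered, 4204 with no fold minimum and 1022 with a minimum of 1. Of the 10 genes, 2 were called after knockdown, and 0 unfiltered or at a minimum of 1. Between the control lines, 13687 became 8512, and 6 of the 10 genes became 3, with at least 10 counts in every library, which removes genes absent from one line. Of 2 interaction calls among the 10 genes, 1 remained on log2(TPM + 1) and 0 when centered. The cause of the other shifts was not tested.

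Leaving out 1 library gave between 2835 and 3556 genes and 2 to 4 of the 10 after overexpression, 2292 to 3035 and 2 after knockdown, 13216 to 13569 and 5 to 6 between the lines, and 2532 to 3513 and 1 to 3 for the interaction. Where 1 library of a group was left out, the other was assumed to vary like the remaining groups. DESeq2 called 2954, 2060, 13038 and 3111 genes.

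On log2(TPM + 1) the median of all genes shifted by -0.14 after overexpression and by 0.53 between the lines. The genes called higher after overexpression were 1986 of 3355 in counts, 1006 of 3003 on log2(TPM + 1) and 1535 of 2528 when centered. Between the lines they were 7150 of 13687, 8749 of 12309 and 4837 of 11863.

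Replicate numbers did not pair the libraries: the deviations of libraries with the same number correlated at 0.02 in both lines over genes. With a replicate block, 3536 genes and 4 of the 10, MMP13 (0.74, adjusted p = 0.0461 from edgeR) added, were called after overexpression, 2949 and 2 after knockdown, 13579 and 6 between the lines and 3576 and 2 for the interaction.

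TIMP1, TIMP3 in C4-2B, MMP14 in NCI-H660 and PLAU in C4-2B were limited by depth.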
